A study of Mus musculus with 207 samples.

Results

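The data described here are the jejunal transcriptomes of C57BL/6 mice on a WPI diet at the fat level labelled FAT-40, set against those on a WPI diet at FAT-20. Members were taken by their tissue and diet labels: 12 libraries of the diet WPI-30_FAT-40 and 12 of the diet WPI-30_FAT-20, 24 of the 207 libraries in the series. The labels do not spell out WPI and CAS; from the study they are read as whey protein isolate and casein. Both groups carry the protein level 30, and the labels give no unit for either level. Each library is total RNA from 1 piece of jejunum, labelled with its own mouse identifier, and sex, age and time on diet were not given in the labels. The jejunum of mice on WPI at FAT-55 (12 libraries), the same fat step on CAS (12 libraries at FAT-40 and 11 at FAT-20, protein level 30) and the livers of the same 24 mice serve for comparison.

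The jejunum is the main site of fat absorption. Its enterocytes take up fatty acids and monoglycerides, rebuild triglycerides at the endoplasmic reticulum and export them in chylomicrons built on apolipoprotein B. Enterocytes can also make fatty acids from sugar, a programme that rests on the enzymes Fasn, Acaca and Scd1 and on Thrsp, a small nuclear and cytosolic protein tied to lipogenesis. The same tissue holds many intraepithelial T cells, and interferons act there on epithelium and leukocytes alike through Jak kinases and Stat proteins, inducing the chemokines Cxcl9 and Cxcl10, antiviral enzymes, guanylate-binding and immunity-related GTPases and the machinery of MHC class I presentation.

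Each library held 20.98 to 23.81 M reads assigned to genes (M, 1e+06 reads). Expression values are CPM, counts per M reads on normalised library sizes, and fold changes are on a log2 scale, WPI FAT-40 over WPI FAT-20, with their standard errors. Of 16992 genes tested, 2163 were higher at FAT-40 (12.7% of the genes tested) and 2215 were lower (13%) at an adjusted p under 0.05, and the median over all genes was -0.02. Without replicate 12 of WPI FAT-40 the count of higher genes was 1368. Where the libraries were scaled to 17 pan-epithelial genes instead, the median of all genes moved to -0.16 and the split became 519 higher and 4022 lower, so a modest rise is relative to the average transcript. Nothing in the labels gives a batch or date, and the mouse identifiers share a stem in 4 sets of up to 3 mice per group. What a stem marks is not stated, and the consensus correlation within a stem was 0.11.

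Markers of several cell types outside the epithelium, namely fat cells, smooth muscle, nerve cells and red cells, were lower at FAT-40. Where the fat cells of a piece lay is not in the labels. Fat cell and smooth muscle markers are together called wall content here, and wall covariates where they enter a fit. Of 9 fat cell markers, 8 fell, with a median of -3.43, and all 13 smooth muscle markers fell, with a median of -1.04. Fat cell markers averaged 0.05 ± 1.4 log2 CPM at FAT-40 (lowest -1.02, median -0.34, highest 3.67) and 3.62 ± 1.2 at FAT-20 (lowest 1.63, median 3.36, highest 6.01; SD, n = 12 each). The groups overlapped only through replicate 3 of WPI FAT-40. Adipoq, which encodes the fat cell hormone adiponectin, had a median of 0 CPM at FAT-40 (lowest 0, highest 10.2), against 9.04 CPM at FAT-20 (lowest 2.16, highest 73.4), a change of -4.03 ± 0.84 (adjusted p = 0.000361). Without replicate 3 of WPI FAT-40 its change was -6.32, and the changes of Plin1, Car3, Cfd and Retn moved by more than 1.5-fold in the same way, to -6.16, -6.21, -7.13 and -5.16. Lep, the leptin gene, fell by 4.66 on the log2 scale (adjusted p = 0.000485) by 5.52 without that library, and by 3.94 without replicate 1 of WPI FAT-20. Cidec, a lipid droplet protein that enterocytes also make, did not pass (0.29, adjusted p = 0.177).

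Smooth muscle markers averaged 5.55 ± 0.48 log2 CPM at FAT-40 (4.85 to 6.23) and 6.51 ± 0.54 at FAT-20 (5.77 to 7.89), ranges that overlap. Myh11, the heavy chain of smooth muscle myosin, had 110 to 357 CPM at FAT-40 (median 200.4), against 258 to 1161 CPM at FAT-20 (median 412), a change of -1.12 ± 0.22 (adjusted p = 0.000181). Genes of the wall's nerve cells fell with them, 11 of 15 measured, including Prph, a neuronal intermediate filament (-0.91 ± 0.18), and Nos1, the neuronal nitric oxide synthase (-1.11 ± 0.25). All 5 globin and red cell genes fell (median -1.16), 4 of 15 fibroblast and matrix genes fell (Fn1, fibronectin, by 0.57 ± 0.13), and none of 13 endothelial genes passed. In bulk tissue, fewer cells of a type and less RNA per cell cannot be told apart. Diet and wall content moved together. The fit that added the fat cell and smooth muscle means as covariates called 20 genes higher and 10 lower. For most genes, therefore, the diet and the wall content of the sample cannot be told apart.

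**Figure D1:**
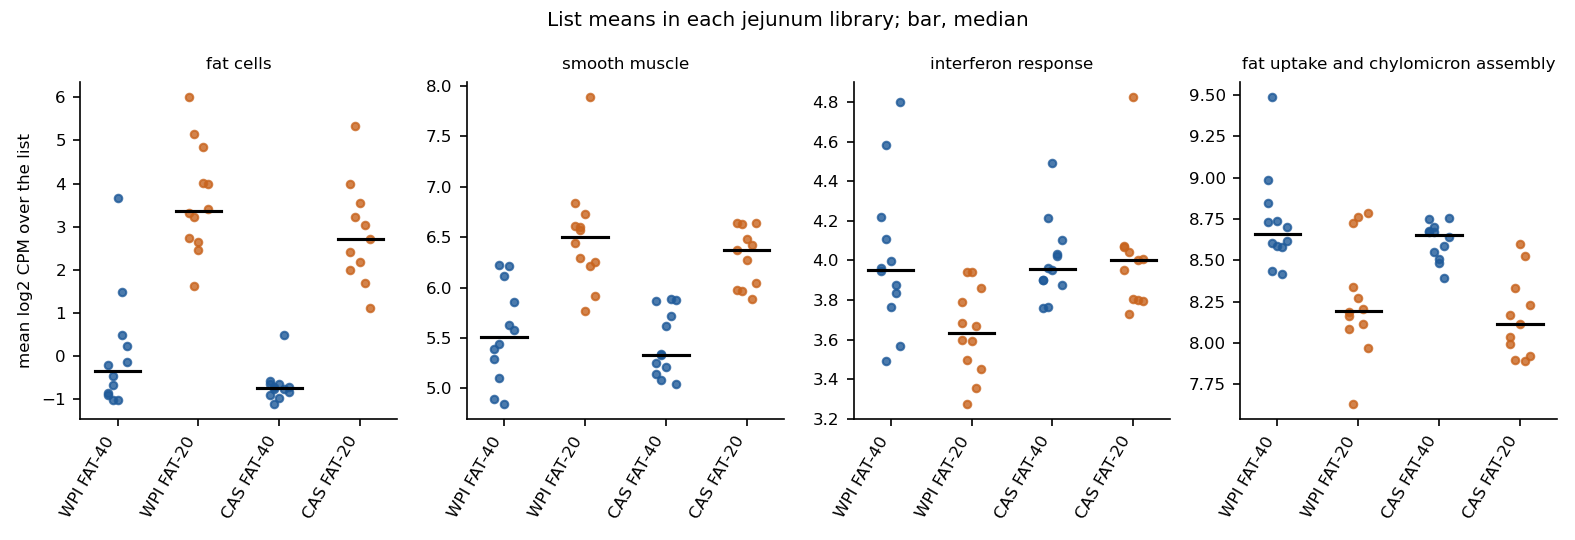
Mean log2 CPM over the measured members of 4 gene lists (vertical axes) in each jejunum library of 4 diets (horizontal axes), 1 point per library, with the median as a bar. Fat cell and smooth muscle means were lower at FAT-40 on WPI and on CAS, fat uptake means were higher on both, and the interferon median was 3.95 in WPI FAT-40 and 3.63 in WPI FAT-20, against 3.96 in CAS FAT-40 and 4.003 in CAS FAT-20.

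Segment markers were read for the identity of the samples. Of 11 measured genes of jejunal segment identity 4 were higher and 3 lower, with a median of 0.25, where 12.7% of all genes were higher and 13% lower. The counts ran from 2 to 5 higher and from 2 to 4 lower over the fits that left out 1 library. Fabp6, the ileal bile acid-binding protein, had 0 to 0.36 CPM in the FAT-40 libraries and 0 to 282 CPM in the FAT-20 libraries, where replicates 1 and 9 held 177 and 282 CPM and the other 10 at most 2.14 CPM. Its change of -7.90 ± 1.05 (adjusted p = 9.21e-07) and that of Slc10a2, the ileal bile acid transporter (-2.11 ± 0.58), lean on those 2 libraries: without both the change of Fabp6 was -2.13 (adjusted p = 0.0107), and without replicate 9 alone that of Slc10a2 was -0.16 (adjusted p = 0.822) and that of Fabp6 was -6.70. Without replicate 2 of WPI FAT-40 that of Slc10a2 was -2.81. With all libraries kept, the change of Fabp6 was -1.91 in DESeq2 (adjusted p = 0.01). It was -2.96 in limma's voom with a random effect for stem, where it did not pass (adjusted p = 0.104). Slc10a2 kept its call in DESeq2. It lost it with sums by identifier stem, with a random effect for stem, with sample weights and with the compared groups alone. Plb1, a brush-border phospholipase, followed the same 2 libraries, with 1216 and 1241 CPM there and at most 163 CPM in the other FAT-20 libraries, against 0.06 to 75 CPM at FAT-40 (-4.84 ± 0.99, adjusted p = 0.000267). Its change was -2.34 (adjusted p = 0.0369) without the 2 libraries and -6.70 without replicate 4 of WPI FAT-40. In voom with a random effect for stem the change of Plb1 was -4.03 and did not pass (adjusted p = 0.0705). Of 17 genes of the epithelium as a whole 5 were higher and 1 lower (2 to 5 and 0 to 3 over the fits that left out 1 library), with a median of 0.02.

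Genes of fat uptake and chylomicron assembly rose as a group: 22 of 28 measured members were higher and none lower, with a median of 0.35 and all 28 positive. The fatty acid transport protein Slc27a4 had 931 to 1965 CPM at FAT-40 (median 1189), against 494 to 1065 CPM at FAT-20 (median 732). Its change was 0.59 ± 0.10 (adjusted p = 2.58e-05), and every FAT-40 library lay above the FAT-20 median. Lipa, the lysosomal acid lipase, had 82.1 to 229.9 CPM (median 122) at FAT-40, against 36.9 to 122 CPM (median 69.2) at FAT-20, a change of 0.84 ± 0.15 (adjusted p = 4.17e-05). The ranges of both genes overlapped between the diets, though no FAT-40 library of either lay below the FAT-20 median. Lpcat3, which remodels phospholipids for chylomicron export, rose by 0.34 ± 0.06, and Plin3, a lipid droplet coat protein, by 0.50 ± 0.10.

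Members beyond the 4 with the smallest adjusted p were picked after their values were seen, for their place in the pathway. Apob, the structural protein of the chylomicron, had 4700.3 to 8757 CPM at FAT-40 and 2266 to 6562 CPM at FAT-20, a change of 0.55 ± 0.13 (adjusted p = 0.00146). Apoa4, an apolipoprotein that enterocytes secrete with fat, had 1832 to 5026 CPM at FAT-40 (median 2935) and 428 to 3687 CPM at FAT-20 (median 1302), a change of 1.02 ± 0.22 (adjusted p = 0.000532). The fatty acid receptor Cd36 rose by 0.65 ± 0.16, the lipid transfer protein Mttp by 0.37 ± 0.11 and the scavenger receptor Scarb1 by 1.07 ± 0.30. The members that did not pass were Apoa1 (0.04, adjusted p = 0.886), Fabp2 (0.19), Dgat1 (0.15), Dgat2 (0.49), Apoc3 and Pla2g12b. On CAS the same step raised 20 of the 28 members, against a background of 12.7% of genes higher and 12.4% lower on CAS, with a median of 0.37. In liver the WPI step raised none of the 28 and lowered 1, where 6.54% of 15051 genes passed, 4.19% higher and 2.35% lower. Under pan-epithelial scaling 14 of the 28 were higher, with a median of 0.22, 14 were higher with the compared groups alone, and with both wall covariates none passed, with a median of 0.17.

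Fatty acid synthesis moved the other way, with 13 of 21 measured members lower, 2 higher and a median of -0.27. Thrsp had 0.64 to 4.05 CPM at FAT-40 (median 1.07), against 1.44 to 18.6 CPM at FAT-20 (median 4.15), a change of -2.002 ± 0.29 (adjusted p = 4.18e-06). No FAT-40 library lay above the FAT-20 median, and the highest FAT-40 library was replicate 3, the one richest in fat cell transcripts. Scd1, the stearoyl-CoA desaturase, had 4.10 to 118 CPM at FAT-40 (median 12.6), against 40.1 to 929.5 CPM at FAT-20 (median 145), a change of -3.66 ± 0.55 (adjusted p = 4.72e-06), or -4.45 without that replicate. Both genes are also strongly expressed in fat cells, whose markers fell in the same libraries; with the fat cell covariate the change of Thrsp was -0.40 (adjusted p = 0.563). Without FAT-20 replicates 1 and 9 it was -1.40 ± 0.25 (adjusted p = 0.000218).

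Fasn, the fatty acid synthase, had 24.5 to 88.5 CPM at FAT-40 (median 47.3), against 53.3 to 262 CPM at FAT-20 (median 79.5), a change of -1.05 ± 0.17 (adjusted p = 1.31e-05). Gpam, which attaches the first fatty acid to glycerol phosphate, had 10.9 to 18.2 CPM at FAT-40, against 17.5 to 24.5 CPM at FAT-20, a narrow overlap, and fell by 0.46 ± 0.07 (adjusted p = 4.25e-06). Acaca, the acetyl-CoA carboxylase, fell by 0.64 ± 0.11, while Me1, malic enzyme, rose by 0.70 ± 0.23 and the elongase Elovl6 by 0.29 ± 0.09. Me1 did not pass without replicate 12 of WPI FAT-40 (0.58, adjusted p = 0.0712), nor Elovl6 without replicate 2 (0.20, adjusted p = 0.0731). Srebf1, the transcription factor of the pathway, did not pass (0.14, adjusted p = 0.617). On CAS 7 members were lower and 4 higher, with a median of -0.12. In the livers of the same mice none was lower and 5 of 20 were higher, among them Fasn (1.04, adjusted p = 0.00385), Srebf1 (0.92, adjusted p = 0.00447) and Elovl6 (0.70, adjusted p = 0.0447). Thrsp in liver was at 1.44 with an adjusted p of 0.0671. The difference between tissues was not tested. Of the 21 members in jejunum, 7 were lower with the smooth muscle covariate and none with the fat cell covariate, where the median was -0.26.

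**Figure D2:**
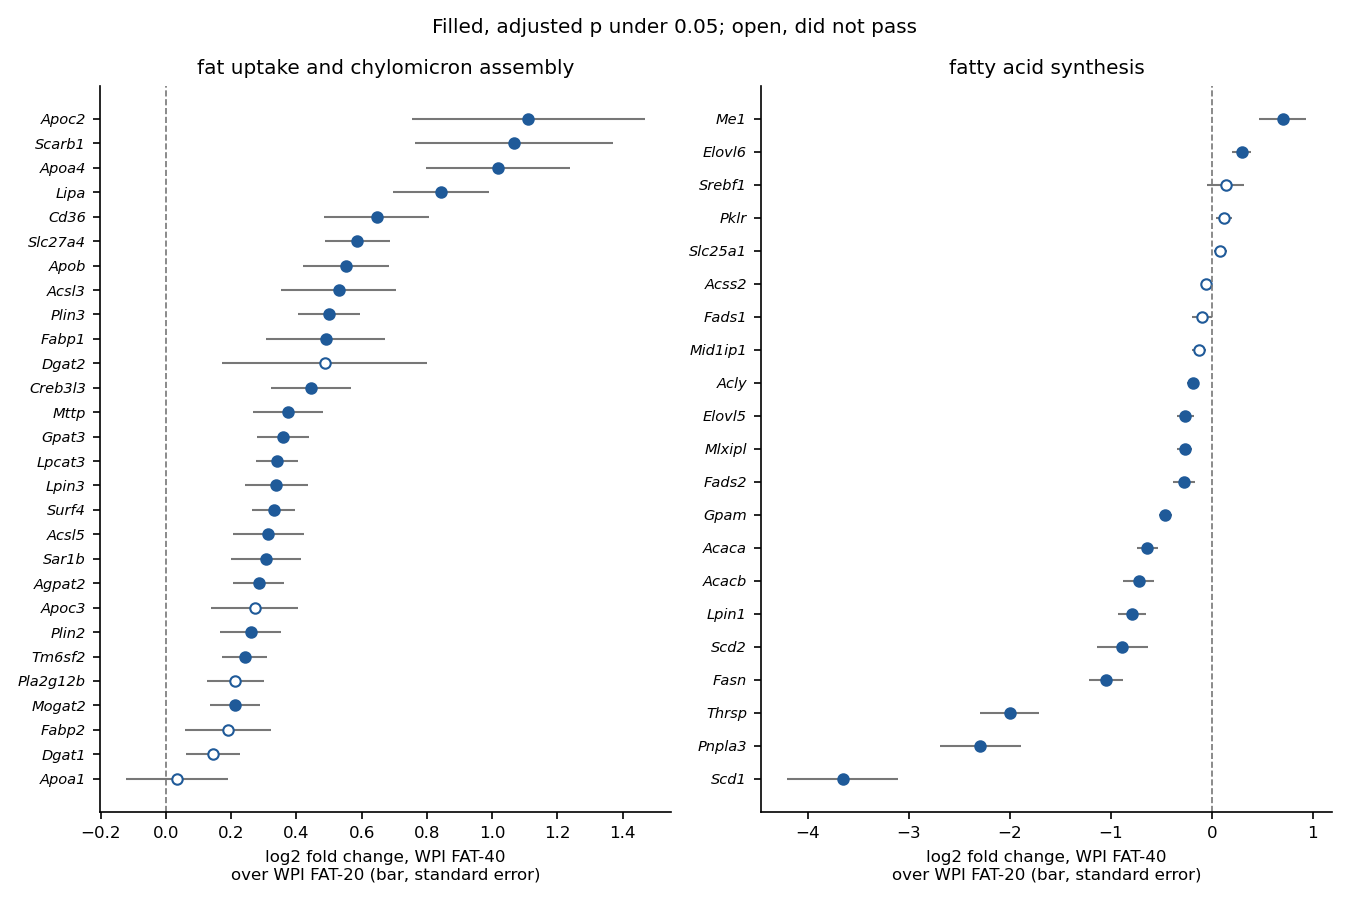
Log2 fold change of WPI FAT-40 over WPI FAT-20 in jejunum (horizontal axes, with standard error bars) for each measured member of the fat uptake list (left) and the fatty acid synthesis list (right). Filled points passed an adjusted p of 0.05: 22 of 28 fat uptake genes to the right of 0, and 13 of 21 synthesis genes to the left with Me1 and Elovl6 to the right.

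Of 29 measured genes of fatty acid oxidation and ketone synthesis 5 rose, with a median of 0.17, a share near the 12.7% of all genes called higher. Ehhadh, a peroxisomal enzyme of beta-oxidation and a known target of the nuclear receptor Ppara, had 121 to 239.7 CPM at FAT-40 and 99.8 to 174 CPM at FAT-20, a change of 0.43 ± 0.11 (adjusted p = 0.00421). In liver the same gene fell by 1.83 (adjusted p = 2.89e-11), and 13 of 30 list members fell there with none higher. Without replicate 12 of WPI FAT-40 only 1 jejunal member passed, 8 passed without replicate 10 of WPI FAT-20, and leaving out FAT-40 replicate 1 or FAT-20 replicate 2 also moved the count by more than 1.5-fold. On CAS 16 of the 29 rose. Cholesterol genes split, with 8 of 25 lower, such as Acat2, an acetyl-CoA acetyltransferase (-0.35 ± 0.09). The other direction was taken by 2 genes, Insig1, a sterol sensor that holds back synthesis (0.61 ± 0.15), and Sc5d, a late enzyme (0.25 ± 0.06). The lower count was 4 without replicate 9 of WPI FAT-20, 14 without replicate 2 of WPI FAT-40 and 2 without FAT-20 replicates 1 and 9.

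Interferon-induced chemokines were higher at FAT-40 on WPI. Cxcl9, which draws T cells that carry the receptor Cxcr3, lies at chr5:92321347-92328079 on the minus strand (GRCm38). It had 3.51 to 27.7 CPM at FAT-40 (median 7.46, mean 9.15 ± 6.72), against 2.39 to 6.12 CPM at FAT-20 (median 3.49, mean 3.83 ± 1.18; SD, n = 12 each). All 12 FAT-40 libraries lay above the FAT-20 median, with replicates 5 and 2 highest at 27.7 and 15.4 CPM, and the groups overlapped. The change was 1.26 ± 0.27 (adjusted p = 0.000404), and 0.80 ± 0.25 (adjusted p = 0.0121) without those 2 libraries. Cxcl10, its neighbour with the same receptor, had 0.86 to 7.87 CPM at FAT-40 (median 1.67), against 0.24 to 1.58 CPM at FAT-20 (median 0.90), with 9 of 12 FAT-40 libraries above the FAT-20 median. Its change was 1.35 ± 0.30 (adjusted p = 0.000706), and 0.77 ± 0.28 (adjusted p = 0.0317) without replicates 5 and 2. With both wall covariates neither passed, at 1.10 for Cxcl9 (adjusted p = 0.173) and 0.90 for Cxcl10 (adjusted p = 0.323). Cxcl11 (0.15, adjusted p = 0.393) and the receptor Cxcr3 (0.27, adjusted p = 0.223) did not pass.

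**Figure D3:**
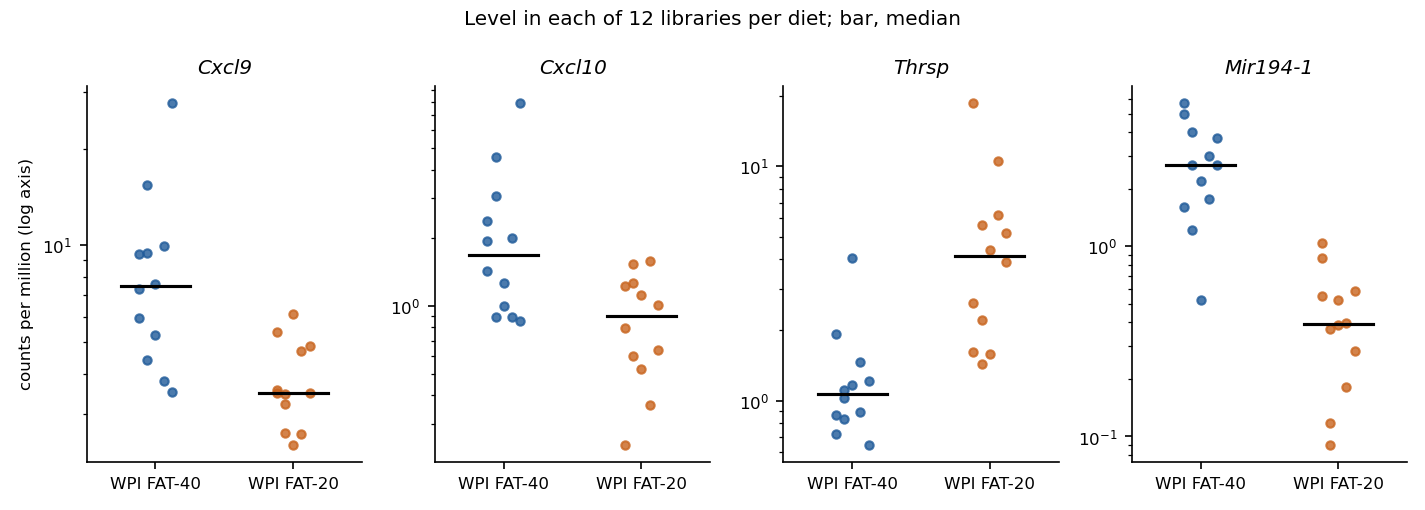
Level of 4 genes (vertical axes, CPM on a log scale) in each of 12 libraries per diet, with the median as a bar. Cxcl9 medians were 7.46 CPM in WPI FAT-40 and 3.49 CPM in WPI FAT-20 and Cxcl10 medians 1.67 CPM in WPI FAT-40 and 0.90 CPM in WPI FAT-20, with replicates 5 and 2 of WPI FAT-40 at the top of both; Thrsp medians were 1.07 CPM in WPI FAT-40 and 4.15 CPM in WPI FAT-20, and Mir194-1 medians 2.68 CPM in WPI FAT-40 and 0.39 CPM in WPI FAT-20.

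Of 55 measured interferon response genes 31 were higher and none lower, with a median of 0.40 and 54 positive. Oasl1, a member of the oligoadenylate synthetase family, had 46.4 to 100.4 CPM at FAT-40 (median 62.5), against 13.9 to 63.3 CPM at FAT-20 (median 29.9). Its change was 0.82 ± 0.17 (adjusted p = 0.000312). Ifih1, a cytosolic sensor of double-stranded RNA, rose by 0.43 ± 0.10, Eif2ak2, the kinase PKR that halts translation, by 0.28 ± 0.07, and Parp12, an interferon-induced ADP-ribosyltransferase, by 0.49 ± 0.12. Every FAT-40 library lay above the FAT-20 median for each of these 4 genes. Igtp, an immunity-related GTPase named after its values were seen because it had the largest fold change of the list, had 4.77 to 134 CPM at FAT-40 (median 10.7), against 5.25 to 10.97 CPM at FAT-20 (median 8.24), a change of 1.42 ± 0.40 (adjusted p = 0.00676). Its FAT-40 values were led by replicate 5, at 134 CPM, and by replicate 12, at 29.0 CPM, while replicate 10 lay below every FAT-20 library. Without replicate 5 its change was 0.50 (adjusted p = 0.278), and DESeq2 on all libraries gave 0.53 (adjusted p = 0.104).

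The count of 31 was 17 without replicate 5 of WPI FAT-40, 16 without replicates 5 and 2, and 22 without FAT-20 replicates 1 and 9. It was 15 with libraries summed by identifier stem and 15 with a random effect for stem, and 17 with sample weights. Leaving out replicate 12 of WPI FAT-40 also moved it by more than 1.5-fold, and no member was called lower in any of these. Pan-epithelial scaling left 14 higher (median 0.26), and the covariate fits left none (median 0.24 with both covariates). Of the interferons themselves, Ifng held 12 reads in all FAT-40 libraries together and 5 in all FAT-20 libraries, and Ifnb1, Ifnl2 and Ifnl3 held none, so a difference in these genes was not detectable at this depth. Among 10 measured interferon receptors and Jak kinases 4 were higher, namely Jak1 (0.26 ± 0.06), the gamma receptor chain Ifngr2 (0.25 ± 0.06), the lambda receptor chain Ifnlr1 (0.30 ± 0.09) and Jak2 (0.32 ± 0.11). Jak2 lost its call without FAT-40 replicate 12 and without FAT-20 replicate 2, with an adjusted p of at most 0.0559. Under pan-epithelial scaling none of the 10 was higher (median 0.06).

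Promoters of several interferon genes carried the letters that interferon-activated factors are known to bind. The stretches below come from RefSeq windows of 250 bases before to 50 after a start in GRCm38.p6. They were picked from genes that rose on WPI and held a match. Cxcl9, Oasl1 and Parp12, which also rose, held no match in a window or had no window by symbol. Capitals mark the core of the interferon-stimulated response element (GAAA, 2 bases of any kind, then GAAA), here the ISRE core, or TTCNNNGAA, the core of the gamma-activated site. Both were searched on both strands.
Cxcl10 (chr5:92349053-92349139, minus strand): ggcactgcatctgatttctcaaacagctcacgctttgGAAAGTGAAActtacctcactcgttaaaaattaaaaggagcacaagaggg
Isg15 (chr4:156200835-156200936, minus strand): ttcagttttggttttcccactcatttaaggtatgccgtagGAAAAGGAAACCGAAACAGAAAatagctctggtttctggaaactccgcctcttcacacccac
Igtp (chr11:58199471-58199571, plus strand): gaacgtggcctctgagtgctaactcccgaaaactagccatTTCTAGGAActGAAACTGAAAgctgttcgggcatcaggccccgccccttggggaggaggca
Irgm2 (chr11:58214862-58214962, plus strand): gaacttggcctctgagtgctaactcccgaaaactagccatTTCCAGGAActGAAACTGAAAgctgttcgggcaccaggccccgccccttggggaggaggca
Serpina3f (chr12:104214383-104214471, plus strand): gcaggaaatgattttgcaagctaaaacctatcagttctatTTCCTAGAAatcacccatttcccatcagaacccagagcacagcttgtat
B2m (chr2:122147508-122147597, plus strand): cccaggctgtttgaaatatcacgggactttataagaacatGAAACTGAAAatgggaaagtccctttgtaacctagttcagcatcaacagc

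Igtp and Irgm2, neighbouring GTPase genes, share 98 of the 101 bases shown, and both hold the 2 motifs in the same order, 45 and 34 bases before the start in Igtp and 75 and 64 bases before it in Irgm2. The rise of Irgm2 (0.74 ± 0.25, adjusted p = 0.0227), like that of Igtp, rested on replicate 5 of WPI FAT-40, without which it was 0.28 (adjusted p = 0.336). In Isg15, which encodes a ubiquitin-like protein, 3 matches of the ISRE core overlap one another, starting 78 to 66 bases before the start. Of 41 list genes matched to a window by symbol, 23 (56.1%) held the ISRE core and 13 (31.7%) held TTCNNNGAA, against 3.99% and 9.55% of all 27025 gene symbols with a window. The list was made of known interferon-induced genes, so a high share could be foreseen and does not bear on the diets. Of all matched genes called higher, 5.09% (86 genes) held the ISRE core and 7.69% TTCNNNGAA, and of those called lower 3.12% and 7.52%. Those 86 genes include 15 members of the interferon list itself. Over all matched genes tested the shares were 3.91% and 8.38%. Among matched members of the list the ISRE core stood in 15 of the 24 that were called higher and in 8 of the 16 that were not. No window of the 22 matched fat uptake genes or the 18 matched fatty acid synthesis genes held either motif. A match is a run of letters and not a measured binding site.

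The fat step on CAS gave other values for the same genes. On CAS 1 of the 55 interferon genes was higher at FAT-40 and 8 were lower, with a median of 0.02. Cxcl9 had 4.52 to 9.23 CPM in CAS FAT-40 (median 7.36), against 4.72 to 20.6 CPM in CAS FAT-20 (median 8.46), a change of -0.38 (adjusted p = 0.297). Set beside the WPI libraries, the group that stood low in Cxcl9 was WPI FAT-20, whose highest library (6.12 CPM) lay below the median of CAS FAT-20. The difference between the WPI step and the CAS step was tested directly. It was positive for 52 of the 55 genes, with 22 at an unadjusted p under 0.05, and over all 16992 genes 2 (0.0118%) had a larger step on WPI at an adjusted p under 0.05 and none a smaller one, where 1310 had an unadjusted p under 0.05. For Cxcl9 the difference was 1.64 (adjusted p = 0.0889) and for Cxcl10 1.38 (adjusted p = 0.232), neither past the threshold; DESeq2 gave an adjusted p of 0.0285 for Cxcl9.

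Both genes past the threshold are interferon-induced, and they were named after their values were seen. Serpina3f, a serine protease inhibitor outside the list, had 1.04 to 8.17 CPM in WPI FAT-40 (median 1.51), against 0.41 to 1.44 CPM in WPI FAT-20 (median 0.75), a change of 1.30 ± 0.28 (adjusted p = 0.000432). On CAS it had 0.85 to 2.52 CPM at FAT-40 (median 1.41), against 1.54 to 8.67 CPM at FAT-20 (median 2.80), a change of -1.03 (adjusted p = 0.00321). The steps ran in opposite directions and differed by 2.33 ± 0.38 (adjusted p = 0.0011). In CAS FAT-20 the 8.67 CPM belonged to replicate 3, and the next highest library held 4.09 CPM. That replicate also led its group in Cxcl9 (20.6 CPM) and Igtp (113 CPM), and no fit left it out. Iigp1, a GTPase that attacks the vacuoles of intracellular parasites, had 7.02 to 44.5 CPM in WPI FAT-40 (median 9.17), against 4.59 to 9.65 CPM in WPI FAT-20 (median 7.87), a change of 0.72 ± 0.21 (adjusted p = 0.00801), and its CAS step was -0.77 (adjusted p = 0.00507). Its steps differed by 1.49 ± 0.30 (adjusted p = 0.0318), but without replicate 5 of WPI FAT-40 its WPI change was 0.34 (adjusted p = 0.136), and without replicates 5 and 2 its difference of steps was 1.02 (adjusted p = 0.219). The step from FAT-40 to FAT-55 on WPI, where 0.247% of genes were higher and 0.406% lower, left none of the 55 genes higher and 4 lower, with a median of -0.37. Set against WPI FAT-20, WPI FAT-55 had 3 of the 55 higher and 1 lower, with a median of 0.05. In that comparison 14.2% of all genes were higher and 16.6% lower, so the rise of the list at FAT-40 was mostly not seen at FAT-55. FAT-55 libraries had 3.65 to 11.03 CPM of Cxcl9 (median 6.02), a change against FAT-40 of -0.56 that did not pass (adjusted p = 0.382). Every FAT-55 library lay above the WPI FAT-20 median of Cxcl9. Of 4 genes of interferon-induced chemokines and their receptor, 1 was higher at FAT-55 than at FAT-20 on WPI, with a median of 0.42. In liver none of the 55 genes passed in either direction on the WPI step, with a median of 0.20.

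**Figure D4:**
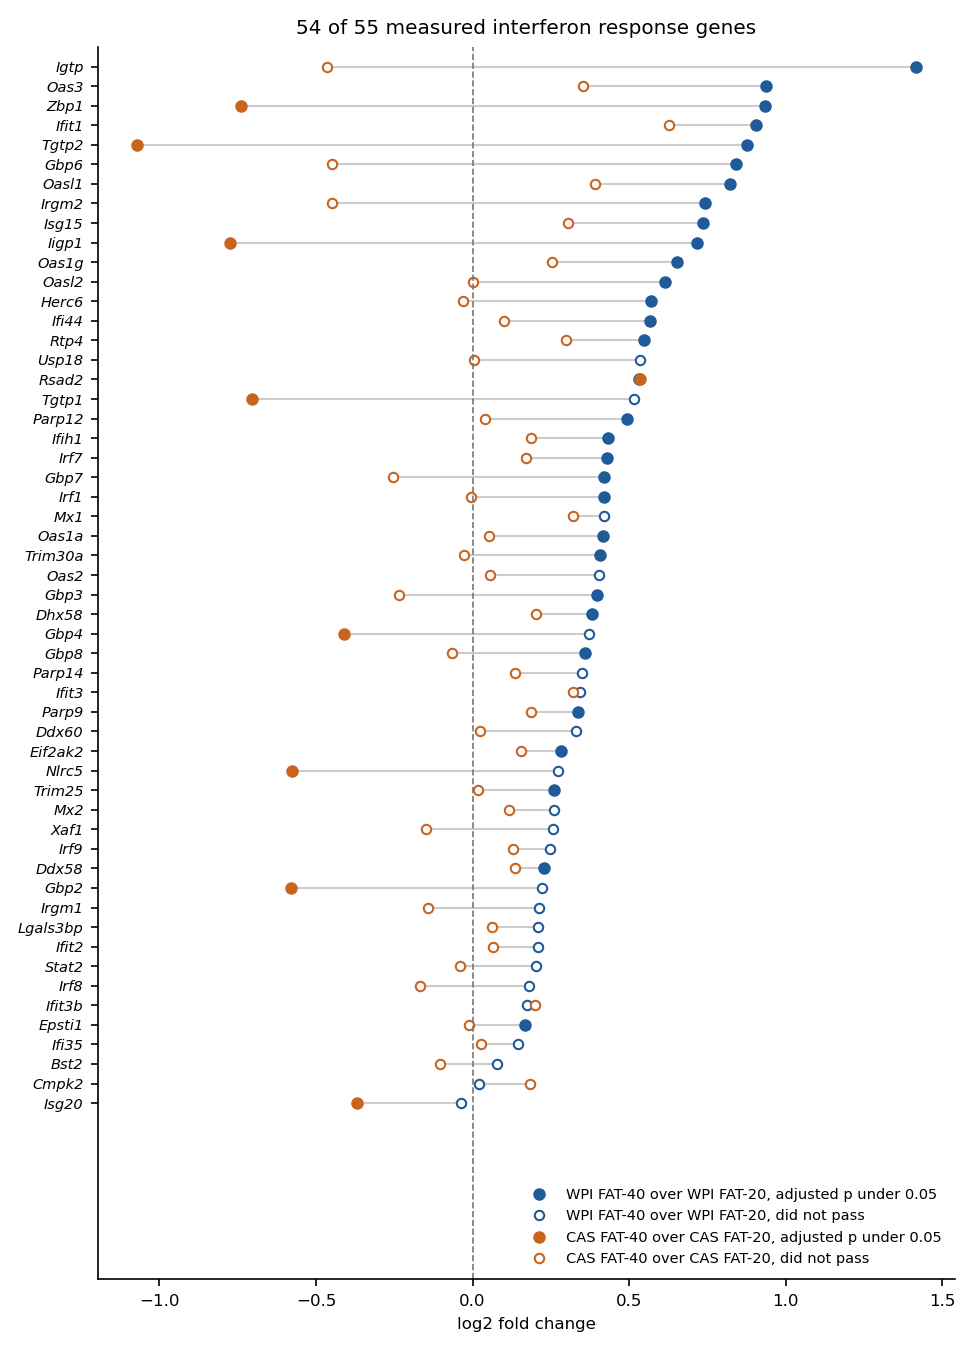
Log2 fold change of FAT-40 over FAT-20 (horizontal axis) for 54 of the 55 measured interferon response genes, on WPI and on CAS, joined by a line; filled points passed an adjusted p of 0.05. On WPI 31 genes passed, all to the right of 0, and on CAS 1 passed to the right and 8 to the left; the 2 comparisons share no libraries.

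Antigen presentation by MHC class I rose with the interferon genes, 11 of 18 measured members, with a median of 0.25. H2-K1, a classical class I heavy chain, had 1018 to 1885 CPM at FAT-40 (median 1272), against 616 to 1184 CPM at FAT-20 (median 859.9), a change of 0.52 ± 0.10 (adjusted p = 0.00012). B2m, the light chain of every class I molecule, had 1261 to 2167 CPM at FAT-40 (median 1465), against 768 to 1662 CPM at FAT-20 (median 1025), a change of 0.50 ± 0.10 (adjusted p = 0.000213), and Erap1, which trims peptides for class I, rose by 0.22 ± 0.05. H2-Q2 rose by 0.56 ± 0.13, a value made uncertain by near-identical class I genes. The count was 4 without replicate 5 of WPI FAT-40 and 7 with sums by identifier stem and with a random effect for stem, and pan-epithelial scaling gave 3 higher and 2 lower. Class II genes did not rise with them. Of 9, only the protease Ctss passed (0.19 ± 0.07), a call lost in 8 fits that each left out 1 library, and the median was -0.24.

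Of 20 markers of T cells and cytotoxic lymphocytes 8 were higher and none lower, with a median of 0.41 and all 20 positive. Cd3g, a chain of the T cell receptor complex, had 4.15 to 9.41 CPM at FAT-40 (median 6.78), against 3.33 to 7.36 CPM at FAT-20 (median 4.25), a change of 0.50 ± 0.14 (adjusted p = 0.00681). Cd8a, the co-receptor of cytotoxic cells, rose by 0.54 ± 0.16, Nkg7, a granule protein, by 0.57 ± 0.17, and the chemokine Ccl5 by 0.64 ± 0.20. The summed level of the list was 97.3 to 196 CPM at FAT-40 and 66.0 to 174 CPM at FAT-20, ranges that overlap, and its part in the interferon difference was not tested. Without replicate 5 of WPI FAT-40 the count was 4, without FAT-20 replicates 1 and 9 it was 2, with sums by identifier stem 4 and under pan-epithelial scaling 3, and Ccl5 lost its call without FAT-40 replicate 12. The count ran from 4 to 12 over the fits that left out 1 library, and moved by more than 1.5-fold without FAT-40 replicates 5, 6, 9 or 12 and without FAT-20 replicates 2, 4, 6, 8 or 9. On CAS none of the 20 passed and the median was -0.17, and the WPI step exceeded the CAS step in 20 of 20, in 13 with an unadjusted p under 0.05 and in none after adjustment. Between WPI FAT-55 and WPI FAT-20 none of the 20 passed, with a median of 0.10. None of 17 B and plasma cell genes passed. Among macrophage genes Mpeg1, which encodes a pore-forming protein (0.29 ± 0.08), C1qc, a complement chain (0.27 ± 0.09), and the Fc receptor Fcgr1 (0.43 ± 0.14) were among 4 of 18 that rose, while the scavenger receptor Cd163 fell by 0.99 ± 0.29.

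The smallest p of the comparison belonged to a microRNA locus. Mir194-1, on chromosome 1 at 185313319 to 185313385 on the plus strand (GRCm38), encodes miR-194, a microRNA abundant in intestinal epithelium. Its mature forms are shown because they are what the locus makes, with the seed (bases 2 to 8) in capitals, from RefSeq with GRCm38.p6 as build.
mmu-miR-194-5p: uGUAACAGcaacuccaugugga
mmu-miR-194-1-3p: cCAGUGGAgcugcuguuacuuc

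Reads on the locus ran from 12 to 124 per library at FAT-40 and from 2 to 26 at FAT-20. That is 0.52 to 5.68 CPM at FAT-40 (median 2.68), against 0.09 to 1.04 CPM at FAT-20 (median 0.39), with all 12 FAT-40 libraries above the FAT-20 median and replicate 8 alone within the FAT-20 range. The change was 2.64 ± 0.28 (adjusted p = 8.53e-10), and 2.83 ± 0.38 (adjusted p = 4.70e-06) with both wall covariates. The CAS step was 2.90 (adjusted p = 1.93e-10), and FAT-55 did not differ from FAT-40 on WPI past the threshold (0.18, adjusted p = 0.838). The second locus of the same 5p sequence, Mir194-2, and the partner loci Mir215 and Mir192 held 0 reads in all 24 libraries. Libraries of total RNA are not made for mature microRNAs, and whether these reads come from the hairpin, a longer precursor or another transcript over the locus was not tested. Iars2, a mitochondrial tRNA synthetase gene on the opposite strand, fell by 0.18 ± 0.06.

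The other large changes were few in kind. Besides Mir194-1, the 10 largest rises held 4930528H21Rik (1.81 ± 0.35), the eosinophil-attracting chemokine Ccl24 (1.76 ± 0.40) and 7 immunoglobulin segments, led by Ighv11-2 (4.23 ± 1.39, adjusted p = 0.0188). Reads can be split among near-identical segments, so these are uncertain, and 6 of the 7 lost their call in at least 1 fit that left out a library. Segments did not all rise, as the 10 largest falls held Ighv8-5 (-3.01). Its call was lost without replicate 1 of WPI FAT-20 (-1.87, adjusted p = 0.185). Ighv11-2 had a median of 0.13 CPM at FAT-40 (highest 51.7) and 0.15 CPM at FAT-20 (highest 3.01), so a few libraries carry its fold change. Nos2, the inducible nitric oxide synthase, had 0.66 to 12.5 CPM at FAT-40 (median 1.84), against 1.22 to 98.5 CPM at FAT-20 (median 8.67), and fell by 2.70 ± 0.65 (adjusted p = 0.00166), or by 2.13 without replicate 9 of WPI FAT-20. That call was lost with sums by identifier stem (adjusted p = 0.0585) and with a random effect for stem (-2.16, adjusted p = 0.0724). Reg3a, a secreted lectin of enterocytes and Paneth cells, had 188 to 566 CPM at FAT-40 (median 299), against 112 to 376 CPM at FAT-20 (median 162). It rose by 0.69 ± 0.22 (adjusted p = 0.0141), a call lost without replicate 12 of WPI FAT-40. Of 18 measured genes of IgA transport and epithelial defence, Reg3a alone was called higher and 1 was lower. The median was -0.17, where 12.7% of all genes were higher and 13% lower.

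In only 10 of 16992 genes did the libraries of the diets not overlap at all, 8 with every FAT-40 library above (0.0471%) and 2 with every one below (0.0118%). Picked for that property, they are described without further weight. Acat1, the mitochondrial acetyl-CoA acetyltransferase of ketone and isoleucine metabolism, had 215 to 313 CPM at FAT-40 and 155 to 211 CPM at FAT-20, with a change of 0.51 ± 0.07. Il13ra1, a receptor chain for interleukins 4 and 13, had 168 to 275 CPM at FAT-40 and 85.8 to 161 CPM at FAT-20 (0.66 ± 0.09). Slc31a1, the copper importer, had 267 to 404 CPM at FAT-40 and 164 to 260.3 CPM at FAT-20 (0.58 ± 0.10). The 2 genes below were the growth factor receptor Fgfr1, with 5.82 to 10.3 CPM at FAT-40 and 10.96 to 17.6 CPM at FAT-20 (-0.68 ± 0.12), and Porcn, which lipidates Wnt proteins, with 0.99 to 2.16 CPM at FAT-40 and 2.38 to 3.27 CPM at FAT-20 (-0.65 ± 0.12). The genes above also included Ptpn3, 1600012H06Rik, Tor1aip2 and Golph3l, with changes of 0.26 to 0.44.

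Genes of the enterocyte surface were read by list. Among 15 brush border genes 8 rose, with a median of 0.22, including Alpi, the intestinal alkaline phosphatase (997 to 2632 CPM at FAT-40 and 594 to 1613 CPM at FAT-20, 0.68 ± 0.15), and Krt20, a keratin of villus cells (0.57 ± 0.14). Without replicate 2 of WPI FAT-20 the count was 4, and leaving out FAT-40 replicate 12 or FAT-20 replicates 4 or 5 also moved it by more than 1.5-fold. The disaccharidases divided. Treh, which splits trehalose, rose by 0.57 ± 0.15 and Lct, the lactase, by 0.36 ± 0.11, whereas Sis, the sucrase-isomaltase, fell by 0.37 ± 0.13 and Mgam, which frees glucose from starch, by 0.48 ± 0.15. Sis and Mgam were named after their values were seen, and Sis did not pass without FAT-40 replicate 3 or without FAT-20 replicates 9 or 11 (adjusted p up to 0.0625). Mgam had 2218 to 4973 CPM at FAT-40 (median 3751), against 3637 to 7117 CPM at FAT-20 (median 5048), and no FAT-40 library lay above the FAT-20 median. Fbp1, a gluconeogenic enzyme, fell by 0.56 ± 0.16 and Hk1, a hexokinase, by 0.37 ± 0.10, and of 18 sugar genes 4 were lower and 2 higher, where 13% and 12.7% of all genes were, with a median of -0.045 and 8 positive.

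Vitamin A genes moved both ways. Of 14 retinoid genes 4 were higher and 3 lower, with a median of -0.02 and 7 positive, and 1 was higher without replicate 12 of WPI FAT-40 and likewise under pan-epithelial scaling. Rbp2, the retinol-binding protein of enterocytes, had 2067 to 5783 CPM at FAT-40 (median 3077), against 956 to 4541 CPM at FAT-20 (median 1601), a change of 0.74 ± 0.17 (adjusted p = 0.00095). Rarb, a retinoic acid receptor, fell by 0.83 ± 0.26 and Aldh1a2, which makes retinoic acid, by 0.34 ± 0.10. Of 32 xenobiotic and glutathione genes 8 rose and 1 fell, led by the carboxylesterase Ces2c (0.69 ± 0.14), with 3 higher without replicate 12 of WPI FAT-40 and 13 without replicate 3 of WPI FAT-20. On CAS 21 of the 32 rose. Nr0b2, a repressor in bile acid signalling, rose by 1.75 ± 0.47 (adjusted p = 0.0043). Respiratory chain genes were higher in 15 of 55 with a median of 0.15, led by cytochrome c, Cycs (0.47 ± 0.09), but in 3 without replicate 12 of WPI FAT-40 and in 1 under pan-epithelial scaling. Of 17 intestinal stem cell genes 5 fell, with a median of -0.22, among them Tnfrsf19, a Wnt-induced receptor (-0.60 ± 0.16), and Smoc2, a matrix protein of crypt base cells (-0.34 ± 0.10), and Lgr5 did not pass (-0.22, adjusted p = 0.304).

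Several lists that moved on CAS hardly did on WPI by count. Of 20 endoplasmic reticulum chaperones 14 fell on CAS and none on WPI, where 1 rose. Of 17 measured Paneth cell genes 13 fell on CAS, against 2 lower and 1 higher on WPI, and of 22 enteroendocrine genes 10 rose on CAS, against 1 higher and 1 lower on WPI. The Paneth median was -0.42 on WPI and -0.96 on CAS, and single WPI libraries moved its count of lower genes between 0 and 6. None of these genes had a difference between the steps past the threshold after adjustment, so the counts do not show that the proteins differ.

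**Figure D5:**
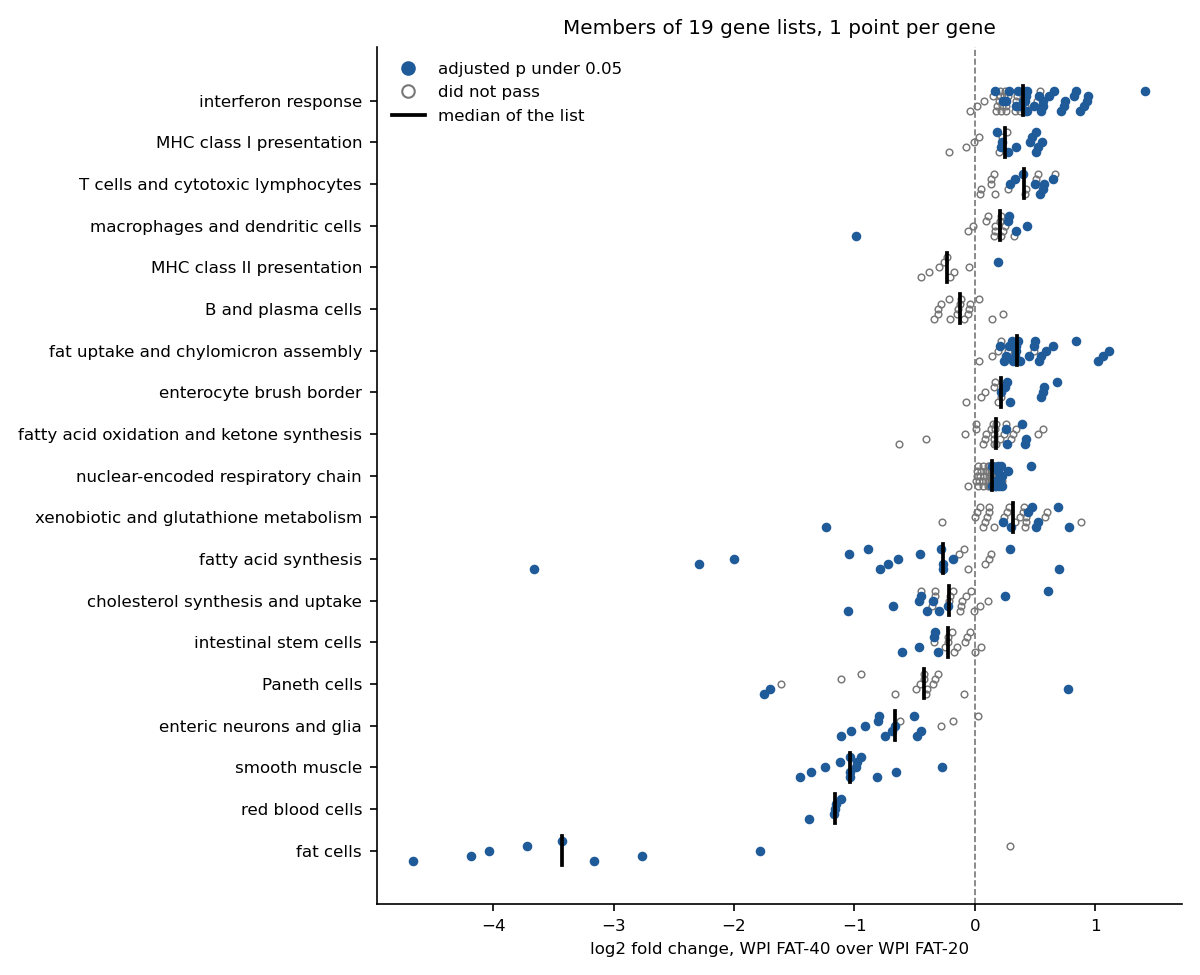
Log2 fold change of WPI FAT-40 over WPI FAT-20 in jejunum (horizontal axis) for each measured gene of 19 lists (rows), filled where the adjusted p was under 0.05, with the median of each list as a bar. Medians run from 0.41 in T cells and 0.40 in interferon response to -1.04 in smooth muscle and -3.43 in fat cells.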

How the data were processed

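Total RNA of jejunum, liver and hypothalamus was sequenced by the submitters. The deposited files hold whole-number counts of reads per gene, not normalized; per the submitters' processing notes Trim Galore 0.61, cutadapt, FastQC, STAR and DESeq2 1.24.0 were used on GRCm38. Parameters and the strand setting are not given in the sources used here, so reads of overlapping or antisense genes may not be separated. Rows for reads outside genes (23.0% of all entries, 8.00% multimapping) were dropped. Of 55536 gene rows, 55450 had a symbol.

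Counts were fitted with edgeR 4.0.16 (R 4.3.3; quasi-likelihood test, TMM scaling, filterByExpr with a minimum count of 10 and total of 15) on all 70 jejunum libraries with 1 coefficient per diet, and p-values were adjusted by Benjamini-Hochberg over the 16992 genes tested. They measure the spread between libraries, each from 1 labelled mouse. The script was tested on simulated data. Alternatives were median-of-ratios and pan-epithelial scaling, no filter, the compared groups alone, and sums or a random effect by identifier stem. Others were sample weights (limma 3.58.1), covariates, DESeq2 1.42.0 and leaving out each of the 24 WPI FAT-40 and WPI FAT-20 libraries. No CAS or FAT-55 library was left out. Leaving out 2 pairs of libraries was chosen after seeing the data.

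The members and the 41 gene lists (765 genes) were chosen with earlier results of these data known. Named genes are Cxcl9, Cxcl10 and Thrsp, the 10 largest rises and falls among called genes averaging at least 1 CPM, and up to 4 members per list by smallest adjusted p, with members that did not pass. Other genes were named after their values were seen, and a few are not reported here. Sequences are from RefSeq (GRCm38.p6) and coordinates from the GENCODE annotation of GRCm38.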

Additional observations from a re-analysis of the deposited data

Results flagged for a closer look

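The effect of the fat step differed between the proteins by a test of the difference itself in 2 genes. Serpina3f moved by 2.33 ± 0.38 log2 units more on WPI than on CAS (edgeR's quasi-likelihood test, adjusted p = 0.0011), rising on WPI and falling on CAS. Iigp1 moved by 1.49 ± 0.30 more on WPI than on CAS (adjusted p = 0.0318). Over the settings other than leaving out 1 library, the adjusted p of Serpina3f ran from 1.12e-05 (DESeq2) to 0.215 (voom with a random effect for stem), and that of Iigp1 from 0.00247 (DESeq2) to 0.556 (sums by identifier stem). Replicates 5 and 2 of WPI FAT-40 held the highest Serpina3f levels on WPI, and without them its difference was 1.74 (adjusted p = 0.0188). Among the CAS FAT-20 and CAS FAT-40 libraries, replicate 3 of CAS FAT-20 held the highest Serpina3f level (8.67 CPM), and no fit left it out.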

How the results depend on the processing

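Against 2163 genes higher and 2215 lower as reported, 981 were higher and 1110 lower with sums by identifier stem, 519 and 4022 under pan-epithelial scaling, 145 and 73 with the smooth muscle covariate, 30 and 16 with the fat cell covariate and 20 and 10 with both covariates. The covariates move with diet, so these fits have less contrast left to test. Leaving out each of the 24 WPI FAT-40 and WPI FAT-20 libraries in turn gave 1368 to 2391 higher and 1781 to 2767 lower. The count of 2 genes with unequal steps on WPI and CAS was 0 in edgeR with sums by stem and in limma's voom with a random effect for stem, while 1310 genes had an unadjusted p under 0.05 in edgeR as reported and 16 passed in DESeq2. It was 1 under pan-epithelial scaling, with the compared groups alone, without FAT-20 replicates 1 and 9 and without FAT-40 replicates 5 and 2. It was 4, 5 and 5 with the fat cell, smooth muscle and both covariates, and 8 with sample weights. The cause was not tested.

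With both covariates the sign turned for Fabp6 (0.81), Plb1 (0.24), Lep (0.35), Retn (0.44), Pcna (-0.0478), Aldh1a1 (-0.0596), Slc10a2 (0.65), Fabp4 (0.0512), Plin4 (0.0187), Myh11 (0.0165), Postn (0.18), Loxl1 (0.0846), Sparc (0.13) and Scarb1 (-0.0428). It turned with the fat cell covariate for Plb1 (0.35), Lep (0.24), Retn (0.50), Pcna (-0.0518), Fabp4 (0.0456), Loxl1 (0.0168) and Sparc (0.10). It turned with the smooth muscle covariate for Scg2 (0.0271), Slc10a2 (1.10) and Postn (0.20), and without FAT-20 replicates 1 and 9 for Slc10a2 (0.34). Of the 154 named genes, 152 kept their call in DESeq2, 112 under pan-epithelial scaling, 94 with sums by stem and 6 with both covariates, and none changed sign in any fit that left out 1 library. Between the diets no paired analysis was possible because the replicate numbers follow accession order and pair no samples. Jejunum and liver of the same 24 mice could be matched by mouse identifier, but the difference between these tissues was not tested.
Depth limits the genes with few reads, such as Ifng.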
